A study of Mus musculus with 2 samples.

Results

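The genes described here encode secreted proteins that act against microbes or bind sugars at epithelial surfaces. They are the antiprotease genes Slpi and Wfdc2, the lectin genes Itln1, Reg1, Reg3b and Reg3g, the resistin-like gene Retnlg, the iron-handling genes Lcn2 and Ltf, and the beta defensin gene Defb1. These 10 genes were taken by symbol from the 43346 mouse genes of the tables, of which 21474 were protein-coding. The set was chosen by name with earlier values of these libraries known, among them the low replicate ratios of Itln1 and Retnlg. Levels and ratios of the set are therefore given as a description, with no test.

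Adult C57BL/6J mice, an inbred laboratory strain, gave stomach tissue at 8 weeks of age, and its polyadenylated RNA was sequenced. The 2 libraries are biological replicates 2 and 1 of 1 group, each from a pool of males and females, with no treatment named. The labels give 1 donor record for both, so whether the pools share animals is unknown, and every SD below describes these libraries, whose difference may be technical. The expected read pairs numbered 62452468 in replicate 2 and 52363597 in replicate 1, and are called reads below. A count of 3 reads on a transcript of 1 kb corresponded to 0.0437 TPM in replicate 2 and 0.0519 TPM in replicate 1, where TPM is the length-scaled abundance of a gene relative to all transcripts of its library.

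Epithelia release such proteins into mucus, where they damage bacteria, bind microbial sugars, withhold iron or block proteases. Some are made by epithelial cells themselves, often after signals through the receptors of interleukin 17 and interleukin 22, and some are stored in the granules of neutrophils. The stomach surface also carries acid, pepsin and mucin, and resident Paneth cells, the main source of antimicrobial peptides in the small intestine, are not part of the normal gastric mucosa.

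Promoter sequences are shown for the 3 Reg genes, which lie in 1 cluster, and for Itln1 and Retnlg, the genes of the set whose levels differed most between the replicates among those with a mean of at least 100 reads. Each is the 120 bases before the RefSeq start on GRCm38.p6, on the strand of the gene. For Reg3b and Reg1 that start lies inside the longer GENCODE span given further on. Capitals mark the letters ATAAAA where they begin 20 to 40 bases before the start. The windows are chr6:78370765-78370884 on the plus strand for Reg3b, chr6:78468875-78468994 on the minus strand for Reg3g and chr6:78425863-78425982 on the plus strand for Reg1. They are chr1:171535295-171535414 on the minus strand for Itln1 and chr16:48872488-48872607 on the plus strand for Retnlg.
Reg3b: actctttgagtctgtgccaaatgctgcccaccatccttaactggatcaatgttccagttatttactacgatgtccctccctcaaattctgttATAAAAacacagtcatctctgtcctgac
Reg3g: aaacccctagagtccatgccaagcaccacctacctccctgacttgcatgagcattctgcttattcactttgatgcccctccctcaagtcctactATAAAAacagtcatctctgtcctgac
Reg1: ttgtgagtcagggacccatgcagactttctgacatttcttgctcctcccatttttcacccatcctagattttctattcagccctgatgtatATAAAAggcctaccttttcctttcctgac
Itln1: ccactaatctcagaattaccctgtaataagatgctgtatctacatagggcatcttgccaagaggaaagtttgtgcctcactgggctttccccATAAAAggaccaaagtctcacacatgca
Retnlg: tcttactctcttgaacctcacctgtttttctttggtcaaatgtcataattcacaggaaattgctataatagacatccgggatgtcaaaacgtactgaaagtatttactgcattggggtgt
These letters stood 28 bases before the start in Reg3b, 26 in Reg3g, 29 in Reg1 and 28 in Itln1. They were found in that window on the given strand in 4 of the 9 genes of the set with a promoter in the table, against 1.91% of 27025 promoters. The form TATAAA, which can overlap ATAAAA, was found in the 3 Reg genes, against 2.22% of all promoters. Reg3b and Reg3g, which encode closely related lectins, shared 68.4% of aligned bases over 250 bases upstream, with a longest common run of 20 bases, acagtcatctctgtcctgac, that ended directly before the start in both. Reg1 shared 50.4% of aligned promoter bases with Reg3b and 51.0% with Reg3g, while Slpi and Wfdc2, which share a protein domain, stood at 43.8%.

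Other letters were searched on both strands of the 250 bases upstream. TTGCNNAA, a core bound by C/EBP factors, was present in Retnlg, Lcn2, Ltf and Slpi and thus in 4 of 9 genes, against 9.55% of all promoters. TTCNNNGAA, a core bound by STAT factors, was present in Reg3b alone of the 9, against 7.18%, and TGANTCA, bound by AP-1, in Reg1 alone, against 6.87%. GGGCGG, bound by Sp factors, was present in Lcn2 and Wfdc2, against 32.9%. GC content over these bases ran from 38.0% in Itln1 to 64.8% in Wfdc2, with a median of 52% over all promoters, and Wfdc2 held 14 CpG sites against a median of 6. A match of letters is a description and not evidence of binding.

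As a set, the genes were a small share of the stomach transcriptome and were led by antiproteases. Their summed level was 124 TPM in replicate 2 and 247 TPM in replicate 1, with a mean of 185 ± 87.0 TPM (SD, n = 2). This was 0.0124% of transcripts in replicate 2 and 0.0247% in replicate 1. Slpi alone held 58.7% of that sum in replicate 2 and 56.0% in replicate 1, and Slpi with Wfdc2 held 88.9% and 75.1% in the same order of libraries. The mean level ran from 0.34 TPM for Defb1 to 105 TPM for Slpi, a 310-fold range. The median of the 10 genes was 3.12 TPM, against 1.15 TPM over all protein-coding genes.

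A level of at least 1 TPM in both libraries was reached by 6 of the 10 genes, against 48.9% of all protein-coding genes. These were Slpi, Wfdc2, Itln1, Retnlg, Lcn2 and Reg1. Reg3b, Reg3g and Ltf passed 1 TPM in the mean but in only 1 library each, and Defb1 stayed below it in both. The libraries differ in which genes fall short, with Reg3g below 1 TPM in replicate 2 and Reg3b and Ltf below it in replicate 1.

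**Figure D1:**
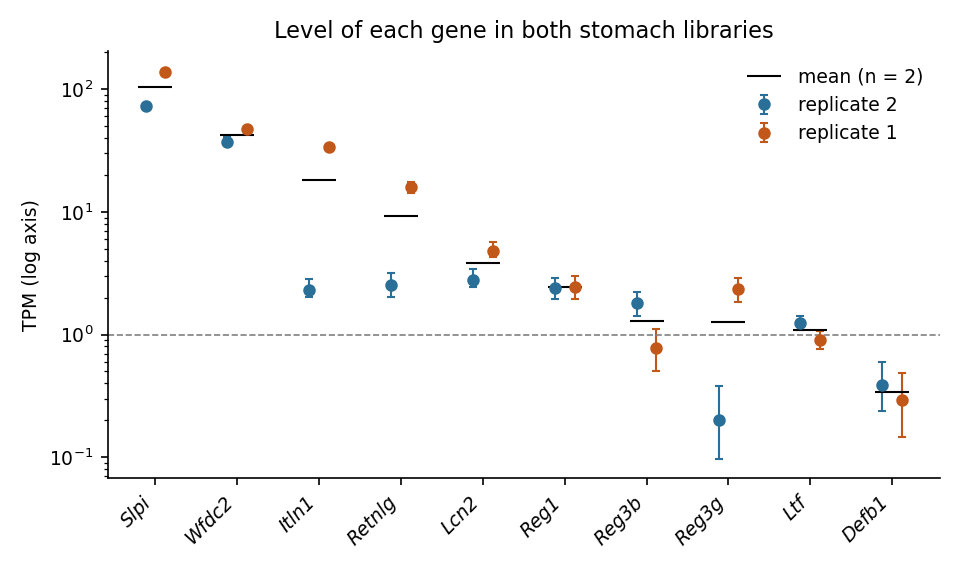
Level of the 10 genes in TPM on a log axis, with replicate 2 left of replicate 1 for each gene. Error bars are the deposited credibility interval of the quantifier, black bars the mean of both libraries, and the dashed line 1 TPM. Itln1, Retnlg and Reg3g show the widest gaps, with 2.30 against 34.0 TPM for Itln1 in replicate 2 and replicate 1.

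Between the replicates, 7 of the 10 genes were lower in replicate 2 and 3 were higher, on counts scaled by TMM, a method that equalises the bulk of genes. Reg1, near 0, turned higher by spike-in totals and by totals without Clps and Pgc, the most abundant transcripts, which gave 6 lower and 4 higher. A difference of 2-fold or more was seen in 3 genes lower in replicate 2, Itln1, Retnlg and Reg3g, and in 1 gene higher there, Reg3b. Of all protein-coding genes averaging 1 TPM or more, 7.6% differed by that much, and of those averaging 5 TPM or more, 6.9%. Among the 14820 with a mean of at least 10 reads, which all 10 genes passed, 13.3% did so, 6.18% lower in replicate 2 and 7.09% higher. The median log2 ratio, replicate 2 over replicate 1, was −0.61 for the 10 genes and 0.01 for those 14820, of which 49.2% were lower in replicate 2. Over the 6837 protein-coding genes averaging 5 TPM or more, the median was −0.15 by TMM and 0.08 by totals without Clps and Pgc. Nothing is read from these counts, since the ratios of some of the genes had led to their choice.

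The depth behind each gene sets how far such a ratio can be read. A 2-fold difference was common at low depth, in 34.1% of genes with a mean of 10 to 100 reads, and rarer above it, in 9.05% of genes with 100 to 1000 reads and 6.36% of genes with at least 1000. Reg1, Reg3b, Reg3g and Defb1 lie in the lowest of these ranges, Itln1, Retnlg, Lcn2 and Ltf in the middle one, and Slpi and Wfdc2 in the highest. The 95% counting interval of the ratio lay wholly beyond 2-fold for Itln1, Retnlg and Reg3g, and it held 0 for Reg1 and Defb1. These intervals cover counting error only.

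**Figure D2:**
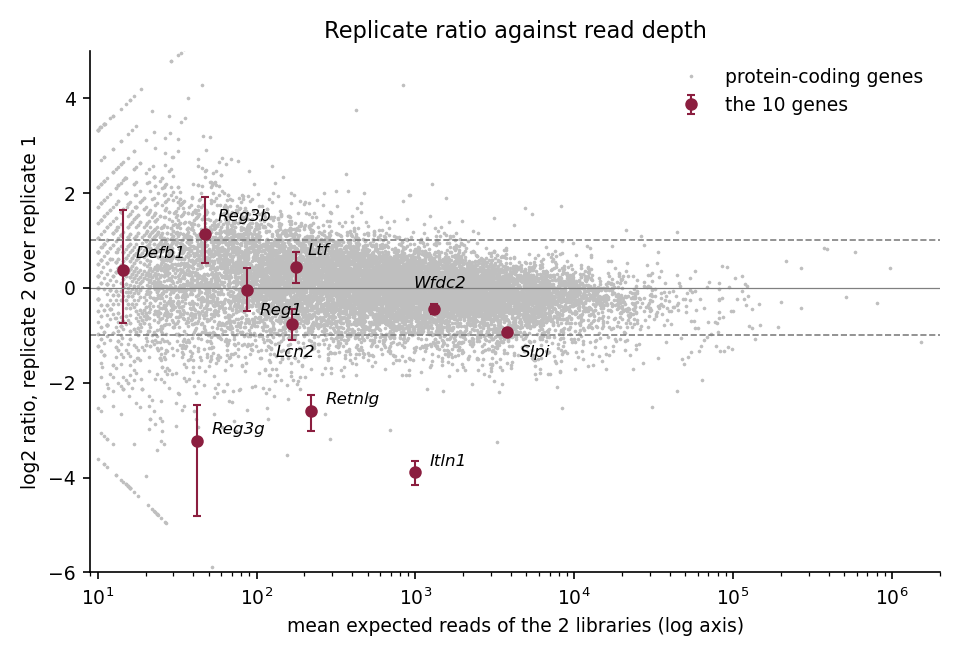
Log2 ratio, replicate 2 over replicate 1, against the mean expected reads of both libraries on a log axis. Grey points are protein-coding genes with a mean of at least 10 reads, red points the 10 genes with their 95% counting intervals, and dashed lines mark 2-fold. Itln1 at −3.88 and Retnlg at −2.59 lie below nearly all genes of like depth, while Reg3b at 1.14 lies within the cloud.

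Slpi encodes the secretory leukocyte protease inhibitor, which blocks serine proteases such as neutrophil elastase and cathepsin G and also acts on bacteria. It lies at chr2:164354070-164389095 on the minus strand of mm10. Slpi had 2952 reads and 72.7 TPM in replicate 2, against 4620 reads and 138 TPM in replicate 1, with a mean of 105 ± 46.4 TPM (SD, n = 2). It ranked 680th among protein-coding genes by mean level and was the highest of the set in both libraries. The log2 ratio was −0.93 (95% counting interval −1.0 to −0.87), and 6.76% of genes with at least 1000 reads were as far or further in that direction. Among genes of proteases that the protein inhibits, Ctsg had 0 reads in both libraries and Elane had 3 in replicate 2 and 0 in replicate 1, while the trypsin gene Try4 had 185 TPM in replicate 2 and 57.8 TPM in replicate 1 and the chymotrypsin gene Ctrb1 had 7.10 and 8.27 TPM.

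The reads of Slpi were divided between 2 transcripts in nearly the same way in both libraries. The 876-base transcript held 76.1% of the TPM of the gene in each, and a 488-base transcript held 23.9% in replicate 2 and 23.7% in replicate 1. The remaining transcript had 0 reads in replicate 2 and 5 in replicate 1. Junction reads were counted over 3 introns, 3522 at the 562-base intron, 339 at the 425-base intron and 94 at the 575-base intron.

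Wfdc2 encodes a whey acidic protein with a pair of four-disulfide cores, made by many mucosal epithelia. It lies at chr2:164562413-164568510 on the plus strand, and the span from Slpi to the end of Wfdc2 covers 214.4 kb. Wfdc2 had 1238 reads and 37.5 TPM in replicate 2, against 1382 reads and 47.0 TPM in replicate 1, with a mean of 42.2 ± 6.77 TPM. The log2 ratio was −0.45 (−0.56 to −0.34), and 23.9% of genes of like depth were as far in that direction. The interval did not hold 0, but the difference was the smallest of the 7 genes lower in replicate 2 apart from that of Reg1.

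The transcripts of Wfdc2 differed more than its total. The 849-base transcript held 60.3% of the TPM of the gene in replicate 2 and 55.5% in replicate 1. A 558-base transcript was listed at 0 reads in replicate 2, with a posterior standard deviation of 7.58 reads, and at 385.9 reads with one of 22.1 in replicate 1, where it held 40.3%. A 398-base transcript showed the opposite, with 164.52 reads in replicate 2, where it held 30.9%, and 0 in replicate 1. Reads of 1 gene are shared out among these overlapping models by the quantifier, and the split was not checked against coverage here. Junction reads, 915 in all over 6 introns, were split almost evenly over the fields R1 and R2 of the junction table, with 48.9% under R1, against 41.7% over all 340787 junctions. No source used here says which library R1 or R2 stands for.

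Of the 8 other genes listed with this domain, 5 had a mean of at least 10 reads, and these 5 were lower in replicate 2 under each scaling tried, where 49.2% of all genes at that depth were lower. Their median log2 ratio was −0.72. Of the 5, 2 were lower by 2-fold or more, against 6.18% of all genes, or 1 by totals without Clps and Pgc and by log2(TPM + 1). Wfdc21 had 20.95 TPM in replicate 2 and 35.77 TPM in replicate 1, and Wfdc1, which is found in smooth muscle and stroma, had 25.88 and 32.96 TPM in those libraries. Wfdc5 had 9.69 TPM in replicate 2 and 13.58 TPM in replicate 1, and Wfdc12 had 1.97 and 4.37 TPM. Wfdc15b had 2 reads in replicate 2 and 32 in replicate 1, and Wfdc18 had 0 and 15. In the other direction, Wfdc17 had 15 reads in replicate 2 and 2 in replicate 1, and Wfdc3 had 11 and 1. Among all 17 genes named Wfdc other than Wfdc2, the 8 with at least 10 reads were lower in replicate 2. A list of 19 genes known from the epididymis, a tissue that expresses many Wfdc, lipocalin and defensin genes, was also lower in replicate 2, with 16 reads in replicate 2 and 797 in replicate 1. That list was drawn up after its values were seen, and its part in the family values was not tested.

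Itln1 encodes intelectin 1, a lectin that binds sugars found on microbial surfaces and is made in mice by Paneth and goblet cells. C57BL/6 mice lack the neighbouring intelectin paralogue that other strains carry. Itln1 (chr1:171518122-171535294, minus strand) had 150 reads and 2.30 TPM in replicate 2, against 1839 reads and 34.0 TPM in replicate 1, with a mean of 18.1 ± 22.4 TPM. Its rank among protein-coding genes was 9056 in replicate 2 and 2231 in replicate 1. The log2 ratio was −3.88 (−4.15 to −3.66), a level 14.8-fold lower in replicate 2, and 3 of 5987 genes with 100 to 1000 reads (0.0501%, Itln1 included) lay as far in that direction. In RNA from whole tissue, fewer cells of a type and less RNA per cell cannot be told apart.

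All reads of Itln1 were assigned to its 1141-base transcript in both libraries. Spliced reads were found at 7 of 8 annotated introns, 757 in all and between 6 and 442 per intron, so the signal lay along the spliced gene. Of these, 683 stood under R1 and 74 under R2, which is 90.2% under R1. None of the 1066 words of 76 bases in this transcript occurred in a transcript of another gene, so at the read length reads of Itln1 could be told from those of other genes. Its neighbours were low, with Alyref2 at 0.79 TPM in replicate 2 and 1.86 TPM in replicate 1 and Cd244a at 0.08 and 0.

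Markers of goblet and Paneth cells did not all differ in the same direction. Among Paneth markers, Ang4 had 0 reads in both libraries, Defa24 had 0 in replicate 2 and 1 in replicate 1, and Mmp7 had 1 and 2. Lyz1, the Paneth cell lysozyme, had 92 reads and 1.25 TPM in replicate 2, against 54 reads and 0.88 TPM in replicate 1, with a log2 ratio of 0.47 (−0.02 to 0.99). Among goblet cell markers, Spink4 had 325 TPM in replicate 2 and 1098.5 TPM in replicate 1 and Clca1 had 54.2 and 77.7 TPM, whereas Fcgbp had 129 TPM in replicate 2 and 99.6 TPM in replicate 1. Zg16 and Muc2 were also higher in replicate 2, with log2 ratios of 0.61 and 1.28. Muc2 stayed below 1 TPM in both libraries, with 0.92 TPM in replicate 2 and 0.29 TPM in replicate 1. Tff3 was nearly even, with 5.12 TPM in replicate 2 and 5.54 TPM in replicate 1 and a log2 ratio of −0.08 (−0.5 to 0.34). Of the 10 goblet and Paneth markers, 7 had at least 10 reads, 3 of them lower and 4 higher in replicate 2 (2 and 5 by totals without Clps and Pgc), and the summed level of the list was 548 TPM in replicate 2 and 1304 TPM in replicate 1. Spink4 decided that direction, since the sum without it was 222 TPM in replicate 2 and 205 TPM in replicate 1. A list of 8 mesothelial markers was also measured, and it is not given as a source of Itln1. Of these 8 markers 6 were lower in replicate 2 and 2 higher, where 49.2% of all genes with at least 10 reads were lower. Their median log2 ratio by TMM was −0.82. Lower by 2-fold or more were 2 of them, Msln at −1.40 and Wt1 at −1.28, against 6.18% of all genes. Efemp1 and Bnc1 were higher, at 0.21 and 0.51. The summed levels were 1536 TPM in replicate 2 and 1904 TPM in replicate 1, nearly all of it from the broadly epithelial keratin gene Krt19. The part of goblet, Paneth or mesothelial cells in the ratio of Itln1 was not tested.

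Reg1, Reg3b and Reg3g belong to the regenerating family of C-type lectins. Reg3g and Reg3b proteins bind and damage bacteria at the intestinal surface, and Reg1 is known from the acinar pancreas and from regenerating mucosa. Reg3b (chr6:78370657-78373466, plus strand), Reg1 (chr6:78422711-78428667, plus strand) and Reg3g (chr6:78466269-78468872, minus strand) stand in a cluster of 6 genes over 98.2 kb. All 3 were low, near the middle of protein-coding genes by level, with 58.8% of those genes below Reg1, 51.2% below Reg3b and 51.0% below Reg3g. They parted between the libraries in 3 ways.

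Reg1 had 95 reads and 2.40 TPM in replicate 2, against 80 reads and 2.46 TPM in replicate 1, with a mean of 2.43 ± 0.0424 TPM. Its log2 ratio of −0.04 (−0.48 to 0.41) makes it the closest match between the libraries in the set. Reg3b had 70 reads and 1.80 TPM in replicate 2, against 25 reads and 0.78 TPM in replicate 1, with a mean of 1.29 ± 0.721 TPM. Its log2 ratio was 1.14 (0.52 to 1.92), so the counting interval reached below 2-fold, and 19.1% of genes with 10 to 100 reads lay as far in that direction. Reg3g had 8 reads (95% Poisson interval 3.45 to 15.8) and 0.20 TPM in replicate 2, against 76 reads and 2.33 TPM in replicate 1, with a mean of 1.27 ± 1.51 TPM. Its log2 ratio was −3.22 (−4.80 to −2.48), 9.31-fold lower in replicate 2, and 39 of 3111 genes of like depth (1.25%) lay as far in that direction.

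Reg3b and Reg3g thus differed in opposite directions although they lie in the same cluster and their transcripts share 67.5% of aligned bases. Their longest common run was 35 bases, shorter than a read, and the deposited posterior standard deviation of the gene count was 0 reads for both in both libraries. Junction reads of these genes also parted between the fields, with 0 under R1 and 18 under R2 for Reg3b, against 43 under R1 and 9 under R2 for Reg3g. For Reg1 they were nearly even, 60 under R1 and 54 under R2. Of the 9 R2 reads of Reg3g, 8 stood at an intron of 280 bases that had none under R1.

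The rest of the family was close to absent. Reg2 and Reg3d, both inside the cluster, had 0 reads in both libraries, Reg3a had 5 in replicate 2 and 0 in replicate 1, and Reg4 had 0 and 1. Reg1 is known from the pancreas, and 13 acinar markers were measured beside it. Besides Try4 and Ctrb1, whose levels stand with Slpi above, Cel had 7.32 TPM in replicate 2 and 5.67 TPM in replicate 1, and Cela2a had 5.81 and 3.50 TPM. Cela3b, Pnlip, Cpa1 and Cpb1 stayed below 1 TPM in both libraries. Cela3b had 0.71 TPM in replicate 2 and 0.82 TPM in replicate 1, and Pnlip had 0.52 and 0.22 TPM. Cpa1 had 0.41 and 0.20 TPM and Cpb1 0.40 and 0.09 TPM in the same order of libraries. Amy2b had 0 reads in both libraries, but the amylase 2 genes, near-identical copies among which reads are divided, had 127 reads in replicate 2 and 11 in replicate 1 in sum. Of the 12 acinar markers with at least 10 reads 9 were higher in replicate 2, or 10 by totals without Clps and Pgc. Over all genes at that depth, 49.2% were lower in replicate 2. The median log2 ratio of the 12 was 0.75, and the part of pancreatic cells in the level of Reg1 was not tested. Clps and Pla2g1b took most of the summed level of that list. Clps had 278891 TPM in replicate 2 and 194378 TPM in replicate 1, and Pla2g1b had 33764 and 20666 TPM. Extl3, which encodes a receptor proposed for Reg proteins, had 9.02 TPM in replicate 2 and 9.13 TPM in replicate 1.

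**Figure D3:**
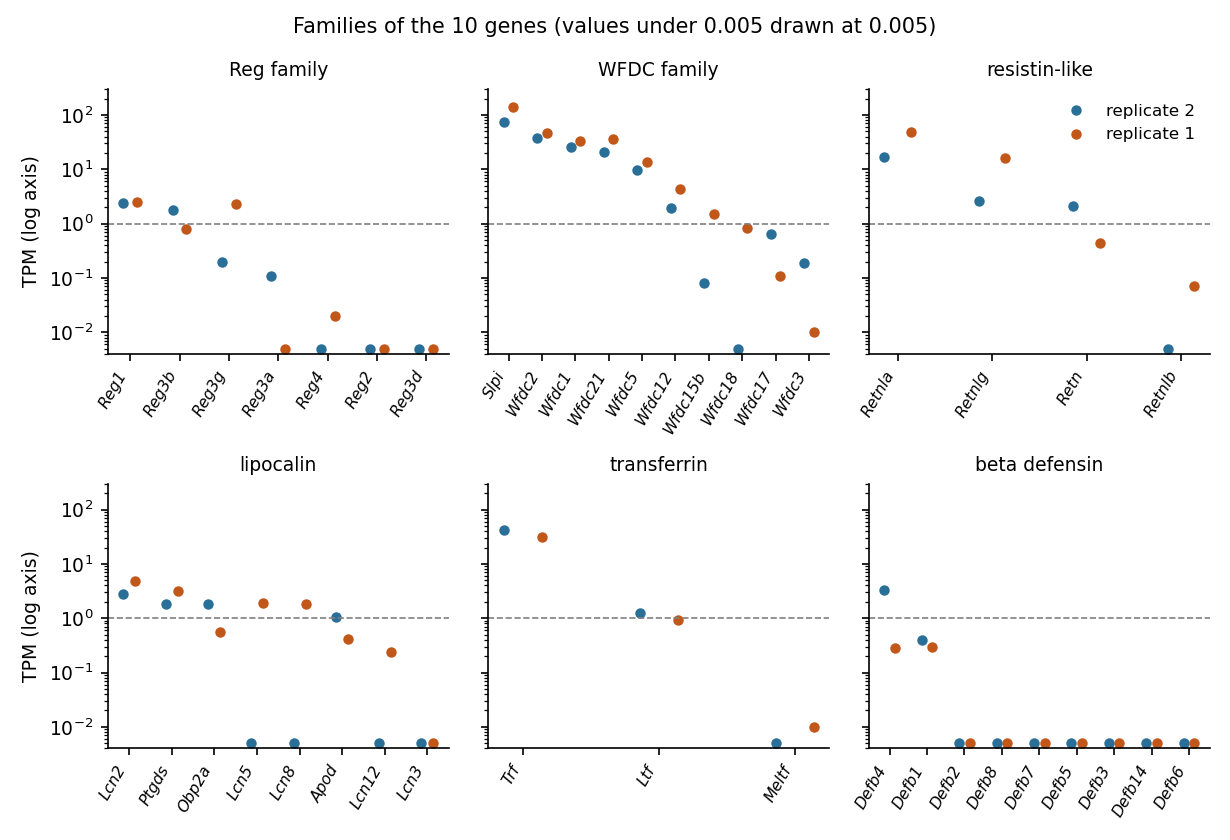
Levels in TPM on a log axis of the listed genes of 6 families, with replicate 2 left of replicate 1 and the dashed line at 1 TPM. Genes with no reads are drawn at 0.005 TPM. In the Reg family only Reg1, Reg3b and Reg3g exceed 1 TPM in any library, while 6 genes of the WFDC family do so in both.

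Retnlg encodes resistin-like gamma, a small secreted protein found in neutrophils, bone marrow and parts of the gut. It lies at chr16:48872621-48874496 on the plus strand. Retnlg had 73 reads and 2.55 TPM in replicate 2, against 369 reads and 15.9 TPM in replicate 1, with a mean of 9.21 ± 9.41 TPM. The log2 ratio was −2.59 (−3.01 to −2.26), 6.02-fold lower in replicate 2, and 9 of 5987 genes with 100 to 1000 reads (0.15%) lay as far in that direction. Its 1 transcript had 372 spliced reads, which covered all 3 introns with 85 to 186 each, and 83.6% of them stood under R1.

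The other resistin-like genes were split. Retnla, which lies 28159 bases from Retnlg and is induced in mice by type 2 cytokines, had 16.9 TPM in replicate 2 and 49.3 TPM in replicate 1, with a log2 ratio of −1.53 (−1.69 to −1.38). Retn, the resistin gene of fat cells, went the other way, with 2.10 TPM in replicate 2 and 0.44 TPM in replicate 1 and a log2 ratio of 2.14 (1.5 to 3.09). Retnlb, known from colonic goblet cells, had 0 reads in replicate 2 and 2 in replicate 1. The neighbour on the other side, Dzip3, stood at 0.28 TPM in replicate 2 and 0.11 TPM in replicate 1.

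Lcn2 encodes lipocalin 2, which binds bacterial siderophores and so keeps iron from bacteria. It lies at chr2:32384633-32388252 on the minus strand. Lcn2 had 140 reads and 2.81 TPM in replicate 2, against 196 reads and 4.83 TPM in replicate 1, with a mean of 3.82 ± 1.43 TPM. The log2 ratio was −0.76 (−1.10 to −0.45), and 7.8% of genes of like depth lay as far in that direction. The 915-base transcript held 99.3% of its TPM in replicate 2 and 94.4% in replicate 1. Spliced reads numbered 182 over 5 of 7 introns, 55.5% of them under R1. The gene 1110008P14Rik, 2694 bases away, had 163 TPM in replicate 2 and 257 TPM in replicate 1.

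The rest of the lipocalin list was mixed. Ptgds had 1.84 TPM in replicate 2 and 3.16 TPM in replicate 1, while Obp2a had 1.82 and 0.55 TPM and Apod 1.05 and 0.42 TPM in those libraries. Lcn5 had 0 reads in replicate 2 and 53 in replicate 1, Lcn8 had 0 and 47, and Lcn12 had 0 and 7, whereas Lcn3 had none in either. The first 3 of these belong to the epididymal list above. Of the receptors proposed for lipocalin 2, Slc22a17 had 22.7 TPM in replicate 2 and 29.8 TPM in replicate 1, and Lrp2 had 0.07 and 0.05 TPM.

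Ltf encodes lactoferrin, an iron-binding protein of milk, mucosal secretions and neutrophil granules. It lies at chr9:111019271-111042767 on the plus strand. Ltf had 219 reads and 1.25 TPM in replicate 2, against 133 reads and 0.91 TPM in replicate 1, with a mean of 1.08 ± 0.24 TPM. The log2 ratio was 0.43 (0.11 to 0.75), and 26.5% of genes of like depth lay as far in that direction. Spliced reads were found at 14 of 26 introns, 266 in all, and 28.9% of them stood under R1. Trf, the related serum iron carrier, was far higher, with 41.6 TPM in replicate 2 and 31.5 TPM in replicate 1, and Meltf had 0 and 2 reads. Lrp1, a receptor that takes up lactoferrin among many ligands, had 71.9 TPM in replicate 2 and 60.5 TPM in replicate 1.

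Retnlg, Lcn2 and Ltf are known from neutrophils, and 15 markers of these cells were measured beside them. S100a8, Ly6g, Mmp8 and Ctsg had 0 reads in both libraries. S100a9 had 4 reads in replicate 2 and 0 in replicate 1, Camp had 0 and 2, Elane 3 and 0, Ngp 13 and 2, and Mpo 19 and 2. Of 15 neutrophil markers 3 reached 1 TPM in both libraries, against 48.9% of all protein-coding genes. These were Pglyrp1, Mmp9 and Padi4, which other cells also make. The summed level of the 15 markers was 158 TPM in replicate 2 and 263 TPM in replicate 1, of which Pglyrp1 gave 153 and 255 TPM. Calling Retnlg, Lcn2 and Ltf neutrophil defence genes refers to their known function, and which cells made them here was not tested. The markers ran in both directions. Of the 7 with at least 10 reads, 4 were lower in replicate 2 and 3 higher, with a median log2 ratio of −0.74, or −0.21 without Pglyrp1. Over all genes at that depth, 49.2% were lower in replicate 2. Cxcr2, a chemokine receptor gene, was lower, with 13 reads in replicate 2 and 42 in replicate 1 and a log2 ratio of −1.82 (−3.0 to −1.05). Mmp9, Padi4 and Pglyrp1 were also lower, with log2 ratios of −0.99, −0.78 and −0.74, while Csf3r, with 169 reads in replicate 2 and 107 in replicate 1, Prtn3, with 29 and 13, and Mpo were higher. The part of neutrophils in the ratio of Retnlg was not tested.

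**Figure D4:**
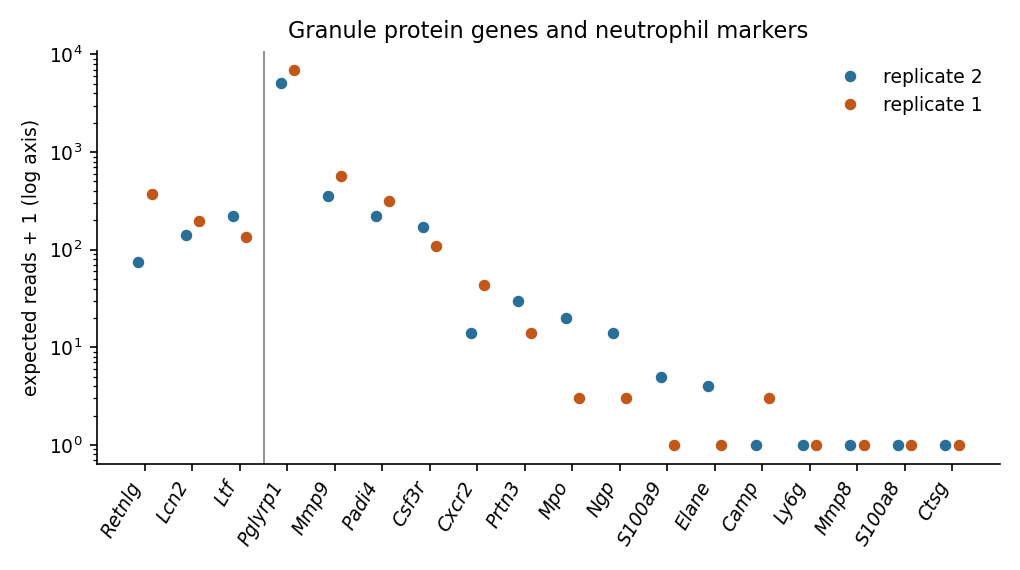
Expected reads plus 1, on a log axis, of Retnlg, Lcn2 and Ltf left of the grey line and of 15 neutrophil markers right of it, with replicate 2 left of replicate 1. Retnlg had 73 and 369 reads, Lcn2 140 and 196 and Ltf 219 and 133 in those libraries, while S100a8, Ly6g, Mmp8 and Ctsg lie at 0 reads.

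Defb1 encodes a beta defensin that many epithelia make without induction. It lies at chr8:21776599-21795185 on the plus strand and was the lowest of the set. Defb1 had 18 reads (95% Poisson interval 10.7 to 28.4) and 0.39 TPM in replicate 2, against 11 reads (5.49 to 19.7) and 0.29 TPM in replicate 1, with a mean of 0.34 ± 0.0707 TPM. The log2 ratio of 0.37 had an interval from −0.74 to 1.65, so a difference was not detectable at this depth. Of the 9 beta defensins listed, 7 had no reads in either library. Defb4, an inducible member, had 60 reads in replicate 2 and 4 in replicate 1, with a log2 ratio of 3.13 (2.19 to 5.54).

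The upstream signals and receptors of this defence programme were measured as well. The cytokine genes Il22, Il17a and Il6 had 0 reads in both libraries, and Il17c had 20 in replicate 2 and 0 in replicate 1. Il1b had 21 reads in replicate 2 and 7 in replicate 1, with a log2 ratio of 1.11 (0.01 to 2.77). Tnf had 38 reads in replicate 2 and 18 in replicate 1, with a log2 ratio of 0.73 (−0.05 to 1.69). The receptor subunit gene Il17rc was high, with 189 TPM in replicate 2 and 235 TPM in replicate 1, and Il22ra1 stood at 2.64 and 2.48 TPM. Cebpb and Cebpd, which encode transcription factors that act on many acute-phase genes, were lower in replicate 2. Cebpb had 142 TPM in replicate 2 and 455 TPM in replicate 1, with a log2 ratio of −1.71 (−1.74 to −1.68), and Cebpd had 56.0 and 153 TPM, with a log2 ratio of −1.47 (−1.53 to −1.42). Of the 24 listed genes, 21 had at least 10 reads, of which 11 were lower and 10 higher in replicate 2, or 7 and 14 by totals without Clps and Pgc. By TMM, 49.2% of all genes at that depth were lower in replicate 2. The median log2 ratio of the list was −0.00 by TMM and 0.22 by those totals.

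**Figure D5:**
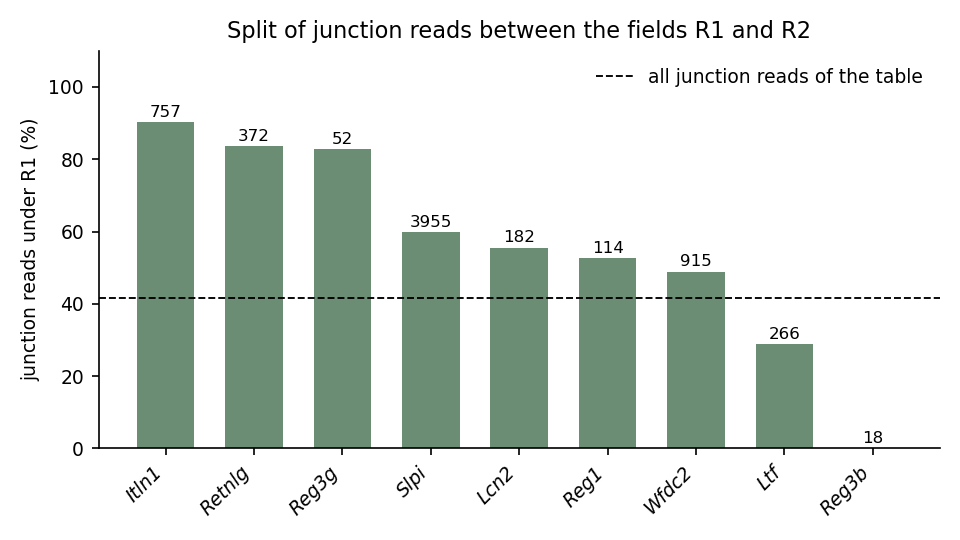
Share of junction reads under the field R1, in percent, for the 9 genes of the set with at least 2 introns found in the junction table, with the number of reads above each bar. The dashed line is the share over all junctions, 41.7%. Itln1 at 90.2%, Retnlg at 83.6% and Reg3g at 82.7% stand highest, and Reg3b at 0% has 18 reads.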

How the data were processed

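The authors deposited expected counts per gene and transcript, 1 table per library, made on mm10 with GENCODE M4, per the README beside the tables. The version of the quantifier is not given in the sources used here, nor is the aligner. TPM, as deposited, counts spike-ins in its total, and FPKM values, also deposited by the authors, served as an alternative. The deposited percent of each transcript in its gene was checked against shares computed from transcript TPM. The deposited bounds of TPM, a signal never below 0, are the quantifier's credibility interval, per the file headers. The deposited junction table on mm9 gives counts of reads per junction, and its significance field, a score that the sources used here do not define, was taken as passing at 0.1. No other table was used.

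Symbols and mm10 positions came from GENCODE M21 through unversioned IDs, and 42462 of 43346 matched. Spike-in, phage and non-mouse rows, 1.31% of reads in replicate 2 and 1.39% in replicate 1, stayed out of count scaling. Expected counts were rounded to whole numbers and scaled by TMM in edgeR 4.0.16 (R 4.3.3) with a prior count of 2. Intervals of ratios are exact conditional binomial (Clopper-Pearson) intervals, and those of low counts are exact Poisson intervals. DESeq2 1.42.0 size factors were an alternative. With 1 group, no test between groups exists. The computation of ratios and their intervals was tested on simulated counts. Junctions were tied to a gene where at least 2 had its intron lengths and spacing, and no coordinates were converted. Promoters are from a RefSeq table on GRCm38.p6, which matched 9 of the 10 genes and not Defb1. Alignments were made globally with Biopython 1.88.

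The genes and all lists were chosen with earlier results of these data known. Named were every gene of the set and of its families, apart from beta defensins without reads. From other lists and from the nearest genes only some are named, for their level, role or lack of reads. These were chosen after their values were seen. Lists for pit, mucous neck, forestomach, macrophage and enterocyte cells were also measured and are not described here. The background by reads was also added after seeing the data.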

Additional observations from a re-analysis of the deposited data

How the results depend on the processing

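The number of genes at the level limit in both libraries was 6 at 1 TPM, 8 at 0.5 TPM and 2 at 5 TPM. It was 7 at 1 FPKM, 8 at 1 TPM without Clps and Pgc in the total and 6 by posterior mean TPM. The summed level of 185 ± 87.0 TPM became 289 when Clps and Pgc were left out of the total, a consequence of the smaller total, and it was 124 TPM without replicate 1 and 247 TPM without replicate 2. The count of genes differing by 2-fold or more was 4, was 3 by log2(TPM + 1) and was 6 at a limit of 1.5-fold. Of 70 alternative ratios of single genes, 67 kept their direction and their side of 2-fold. The others were Reg3b, at 0.65 by log2(TPM + 1), a scale that shrinks low genes, and Reg1, whose ratio near 0 became 0.02 by spike-in totals and 0.18 without Clps and Pgc. Itln1 ranged from −3.91 to −3.41, Retnlg from −2.62 to −2.25 and Reg3g from −3.45 to −1.47. The median log2 ratio of 6837 protein-coding genes with at least 5 TPM was −0.15 by TMM and 0.08 without Clps and Pgc. By counts, the main transcript held 88.2% of Slpi, against 76.1% by TPM, and 76.3% of Wfdc2, against 57.9%. Of 18 junction reads of Reg3b 0 passed the significance limit. Depth limits Defb1 and Reg3g most, with 18 and 8 reads in replicate 2. No paired analysis was possible because the libraries form 1 group.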

Other observations

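Of 19 genes known from the epididymis, several of them defensin and lipocalin genes, 3 had reads in replicate 2 and 19 in replicate 1. They were gathered after their values were seen, so the count is a description of this list. Gpx5, an epididymal glutathione peroxidase, had 0 reads in replicate 2 and 256 in replicate 1, and Adam7, Spag11b and Ces5a had 0 in replicate 2 and 50, 47 and 46 in replicate 1. Crisp1 had 10 reads in replicate 2 and 75 in replicate 1, and Cst8 was nearly even, with 5 and 6. Among the lipocalins, Lcn9 had 0 reads in replicate 2 and 31 in replicate 1, and Lcn10 had 0 and 19. Of all 10 genes named Lcn, 1 had reads in replicate 2, which was Lcn2, and 7 had reads in replicate 1. Apart from Lcn2, those 7 are on the epididymal list, so this count is not a separate observation. The labels name stomach from mixed-sex pools for both libraries.

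The defensin counts overlap the epididymal list, since Defb42, Defb48 and Defb20 are on it, and no share over all genes was computed beside them. Among the 5 genes named Defb with a mean of at least 10 reads, these 3 were lower in replicate 2, while Defb4 and Defb1 were higher. Of 42 genes named Defb, 4 had reads in replicate 2 and 20 in replicate 1, and 22 had none. Defb42 had 1 read in replicate 2 and 39 in replicate 1, Defb48 had 0 and 36, and Defb20 had 0 and 32, whereas Defb4 had 60 in replicate 2 and 4 in replicate 1. Of 22 alpha defensin genes named Defa, 18 had no reads and the others had 1 read in replicate 2 and 6 in replicate 1 in sum.

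Of 11 other secreted defence genes outside the set, 5 reached 1 TPM in both libraries, against 48.9% of all protein-coding genes. The median of the list was 0.215 TPM, against 3.12 TPM for the set. Nothing is read from that difference, since the set and the list were chosen with earlier results known. Duoxa2, which matures the epithelial peroxide-producing oxidase, had 77.4 TPM in replicate 2 and 233 TPM in replicate 1, with a log2 ratio of −1.62 (95% counting interval −1.66 to −1.58). Duox2, the oxidase itself, had 30.5 TPM in replicate 2 and 46.9 TPM in replicate 1. Lyz2, the lysozyme of macrophages, had 26.5 TPM in replicate 2 and 29.6 TPM in replicate 1, and Dmbt1, a mucosal scavenger receptor protein, had 26.9 and 23.6 TPM. Pigr, the receptor that carries antibodies into secretions, had 3.78 TPM in replicate 2 and 8.23 TPM in replicate 1. Nos2, Sftpd and Lpo stayed below 1 TPM in both libraries. The acute-phase genes Saa1 and Saa3 and the airway gene Bpifa1 had 0 reads in both libraries.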
